A study of Homo sapiens with 6 samples.

Results

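The 10 genes described here are AFF3, BNC2, ZNF521, CACNA2D3, TMEM132D, PTPRG, CPNE4, DAB1, FHIT and SMOC2, large genes of 228 to 1503 kb in which the H3K27me3 coverage of the gene body depends on the cell line. They were chosen by the covered share of their bodies and flanks in the same island lists that are described below. Differences between lines in these genes and their flanks are therefore a description of the choice and were given no test. H3K27me3, trimethylation of histone H3 at lysine 27, was mapped by ChIP-seq in 3 established lines of diffuse large B cell lymphoma, each with 1 H3K27me3 library and 1 input library. The lines are Pfeiffer, WSU-DLCL2 and KARPAS-422, all labelled EZH2 mutant with no allele named, with average gIC50 values of 28, 134 and 232 nM in the labels, a measure of growth inhibition whose compound they leave unnamed. The study profiled lines of differing sensitivity to GSK126, an EZH2 inhibitor, and the protocols name no compound given to these cells before fixation. No second library of a line was analysed here, so the spread that replicates would show is unknown and no p-value was computed. No expression values were used here, so neither the lines' identity nor the activity of the genes was checked against RNA.

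H3K27me3 is laid down by the Polycomb repressive complex whose catalytic subunit is EZH2, and it marks repressed genes and broad repressed domains. Bodies of actively transcribed genes usually carry little of it. In B cells and their lymphomas EZH2 is known for its role in the germinal centre reaction, and mutations of its catalytic domain recur in lymphomas of that origin.

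An island is a stretch in which the authors' caller found more H3K27me3 reads than input reads, and the covered share is the percentage of a region's bases inside islands. The lists held 21320 islands in Pfeiffer, 23180 in WSU-DLCL2 cells and 28472 in KARPAS-422. Of these, 153, 122 and 214 lay in the 10 genes or within 200 kb of them, 489 of 72972 in all. The autosomal islands held 17024803, 17188115 and 16039824 H3K27me3 reads, over 8800268, 8224578 and 5694645 input reads, and their median folds over input were 1.58, 1.54 and 1.61. Among the islands nearest to the limit of 200 kb, the farthest inside lay 196 kb from FHIT in Pfeiffer (fold 1.37), 199.5 kb from TMEM132D in WSU-DLCL2 cells (fold 1.28) and 199.8 kb from AFF3 in KARPAS-422 (fold 1.59). The first ones outside had folds of 1.48, 1.58 and 1.60.

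The 10 bodies, 7.614 Mb in all, had 26.5% of their bases covered in Pfeiffer, 21.7% in WSU-DLCL2 cells and 33.03% in KARPAS-422, while single genes ran from 0 to 87.3%. Of the 30 values of a gene in a line, 9 were over 50% and 5 were under 1%. These counts and the next ones describe the choice of genes, since no share of tiles was computed for these limits. In 7 genes exactly 1 line had more than 50% of the body covered. These were AFF3 in WSU-DLCL2; BNC2, ZNF521 and PTPRG in Pfeiffer; and CACNA2D3, CPNE4 and DAB1 in KARPAS-422. SMOC2 had more than 50% in Pfeiffer and in KARPAS-422, and TMEM132D and FHIT reached it in no line. The list depends on the island limit. At a false discovery rate of 1e-10, BNC2 (43.7%), ZNF521 (31.8%), CPNE4 (25.96%) and DAB1 (47.7%) fell below 50% in the lines named. AFF3 (66.5%), PTPRG (58.1%) and CACNA2D3 (62.3%) stayed above it. With lists cut to equal covered length, ZNF521 in Pfeiffer had 43.7%. The map of islands along the genes shows where the covered stretches lie.

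**Figure D1:**
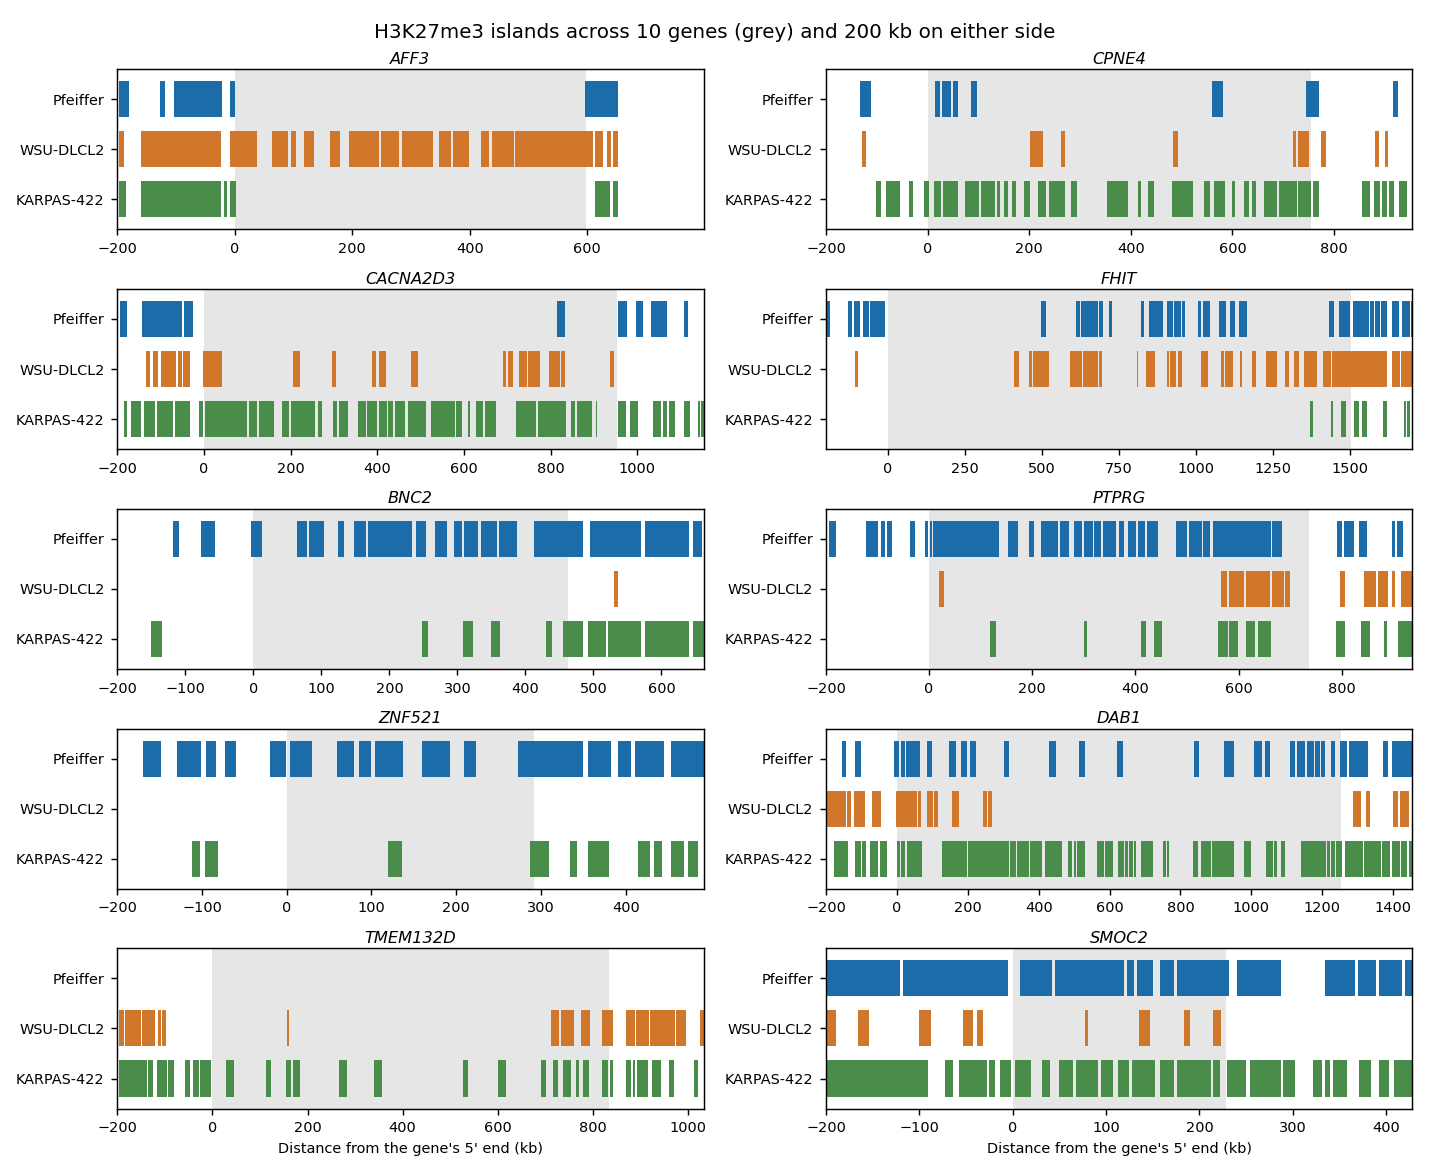
H3K27me3 islands (coloured bars) of each line along the 10 genes, drawn by distance from the gene's 5' end in kb, with the gene body shaded grey and 200 kb shown on either side; rows from top to bottom are Pfeiffer, WSU-DLCL2 and KARPAS-422. AFF3 is empty but for one edge in Pfeiffer and in KARPAS-422 while islands lie next to it on both sides, whereas TMEM132D in Pfeiffer and ZNF521 in WSU-DLCL2 are empty inside and outside the gene.

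A difference of at least 25 percentage points between the bodies in 2 lines was met by 5 of the 10 genes for Pfeiffer minus WSU-DLCL2, against 10.8% of 5103 autosomal tiles of 500 kb. It was met by 6 genes for Pfeiffer minus KARPAS-422 and by 6 for WSU-DLCL2 minus KARPAS-422, against 12.5% of the tiles each. The genes were picked for such differences, so these counts say nothing beyond the choice. The gene bodies also differ from the tiles in length, which affects the percentage. Of the 17 differences, 8 came with a difference of at least 25 points in the same direction in the 200 kb flanks, against 46.2% of the 1828 differences of that size among the tiles. The flanks met the limit in 5, 4 and 5 of the 10 genes for the 3 pairs in that order, against 10.7%, 12.2% and 11.6% of the tiles. Flank coverage also entered the choice of the genes, so nothing is read from these flank counts. These differences rest on islands of modest fold: of the 291 islands that met a body, 10 had a fold of 2 or more. With only islands of that fold, no gene differed by 25 points in any pair. Folds were modest in the whole lists too, with autosomal medians of 1.58 in Pfeiffer, 1.54 in WSU-DLCL2 cells and 1.61 in KARPAS-422. No share of tiles was computed at a fold of 2.

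The body exceeded its own flanks by at least 25 points in 1 of 10 genes in each line, against 9.80% of the tiles in Pfeiffer, 9.56% in WSU-DLCL2 cells and 8.94% in KARPAS-422. It lay at least 25 points under its flanks in 3 genes in Pfeiffer, 2 in WSU-DLCL2 cells and 3 in KARPAS-422, against 9.54%, 8.74% and 7.96% of the tiles. Coverage of the bodies and flanks chose the genes, and nothing is read from these shares. The median body and flank had 26.2% and 47.8% covered in Pfeiffer, 12.1% and 20.1% in WSU-DLCL2 cells and 19.5% and 48.5% in KARPAS-422. Bodies lay under their flanks by any amount in 6, 5 and 8 of the 10 genes, against 42.6%, 43.3% and 43.5% of the tiles, whose median difference was 0 in each line.

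**Figure D2:**
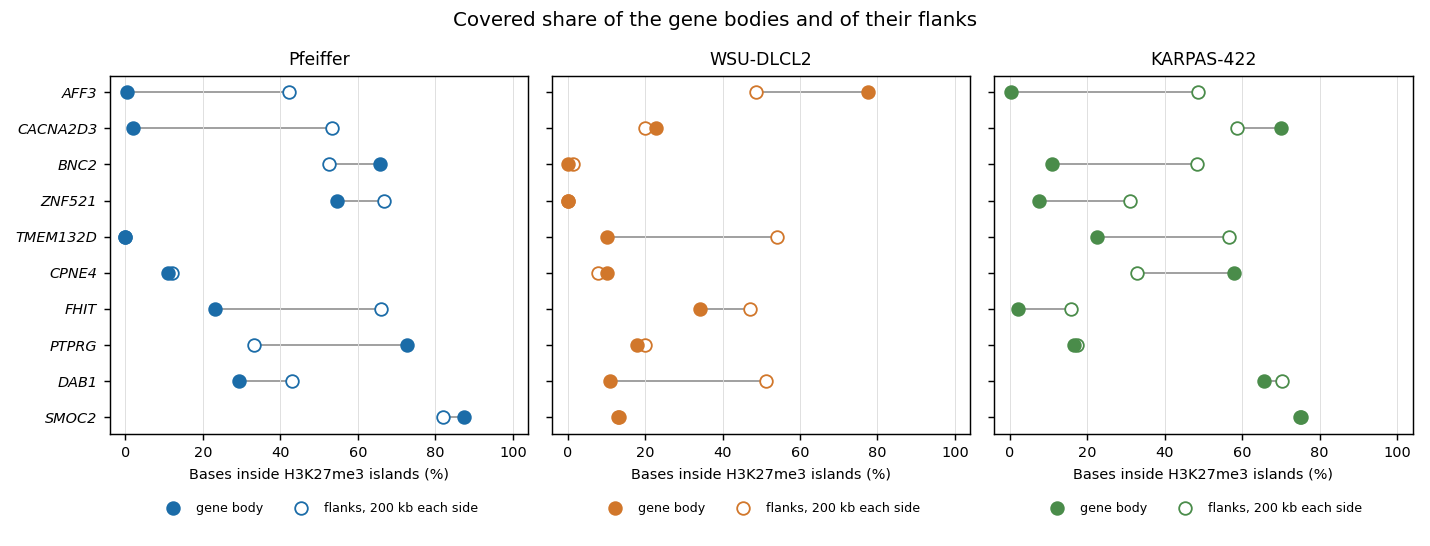
Percentage of bases inside H3K27me3 islands in the gene body (filled circles) and in the pooled 200 kb flanks (open circles) of each gene, 1 panel per line and 1 library per point. The filled AFF3 circle lies right of its flanks in WSU-DLCL2 cells and at 0.460% in the other 2 lines, and both circles of SMOC2 lie close together in every line.

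The 3 genes for nuclear proteins showed 3 different arrangements. AFF3 encodes a nuclear protein of the AF4/FMR2 family, first described in lymphoid cells and linked to transcription elongation. Its bounds on hg19 are chr2:100162001-100760000 on the minus strand. Islands covered 0.460% of the AFF3 body in Pfeiffer (95% Wilson interval 0.128 to 1.10 over windows of 750 bases), 77.6% in WSU-DLCL2 cells (74.5 to 80.3) and 0.460% in KARPAS-422 (0.128 to 1.10). Such intervals treat windows as independent and are too narrow, since islands span many windows. The pooled flanks had 42.2%, 48.7% and 48.7% covered. They joined a 5' flank at 57.4%, 75.9% and 80.9% with a 3' flank at 27.1%, 21.5% and 16.5%, so the sides ordered the lines in opposite ways. WSU-DLCL2 stood 77.1 points above each of the other 2 lines in the body, while its pooled flanks differed from theirs by at most 6.44 points. The body of WSU-DLCL2 lay 28.9 points over its flanks, but 13.9 points over with flanks of 100 kb and 21.8 points over at a false discovery rate of 1e-10, both short of 25. The Pfeiffer body minus its flanks was -41.8 points, and -69.4 points with flanks of 100 kb.

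In Pfeiffer the stretch of AFF3 without an island was 595.5 kb long, from 100164751 to 100760250. Read in the direction of transcription, it began 0.25 kb outside the 5' end and stopped 2.75 kb inside the 3' end. In KARPAS-422 it was 610.5 kb long, from 100146751 to 100757250, and began 2.75 kb inside the 5' end and stopped 15.25 kb outside the 3' end. The edges of the empty stretch thus lay at most 15.25 kb from the gene's ends in both lines, with the bounds known to 1 kb. In WSU-DLCL2 the longest such stretch was 27 kb, and with the body divided into 3 equal parts from 5' to 3', the covered share was 56.4%, 90.6% and 85.7% in the first, middle and last part. At a false discovery rate of 1e-10 the WSU-DLCL2 body still had 66.5% covered. The WSU-DLCL2 body held 13 islands with 9856 H3K27me3 and 5096 input reads, a pooled fold of 1.52 (95% counting interval 1.47 to 1.58), and the longest ran from 100150501 to 100282500 (132 kb, fold 1.47). The only island to meet the body was at 100107751 to 100164750 in Pfeiffer (57 kb, fold 1.63) and at 100757251 to 100767750 in KARPAS-422 (10.5 kb, fold 1.29), each across a gene end with 2.75 kb inside the gene. The start window, 5 kb to either side of the 5' end, was 47.5%, 100% and 77.5% covered. The neighbouring protein-coding genes in RefSeq are LONRF2 before the 5' end and REV1 and EIF5B past the 3' end.

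The promoter at the outermost start of AFF3 held 5 CG dinucleotides in its 300 bases, a count reached by 70.4% of the 35116 promoters in the RefSeq table. The CG dinucleotide, which reads alike on both strands, is found in 96.0% of them, with a median of 14. Promoters of 7 of the 10 genes could be placed at the gene's outermost start, and CACNA2D3, BNC2 and PTPRG are shown beside AFF3 because their start windows were at least 70% covered in 1 line and without an island in another. CACNA2D3 and BNC2 held 37 each and PTPRG 34, counts reached by 11.3%, 11.3% and 15.6% of promoters. The others held 39 in TMEM132D, 13 in FHIT and 28 in SMOC2. The sequences are from RefSeq on GRCh38.p14, 250 bases before to 50 after the start, written 5' to 3' with each CG in capitals; they lie at chr2:100142541-100142840 (minus strand), chr3:54122302-54122601 (plus strand), chr9:16870621-16870920 (minus strand) and chr3:61561321-61561620 (plus strand).
AFF3: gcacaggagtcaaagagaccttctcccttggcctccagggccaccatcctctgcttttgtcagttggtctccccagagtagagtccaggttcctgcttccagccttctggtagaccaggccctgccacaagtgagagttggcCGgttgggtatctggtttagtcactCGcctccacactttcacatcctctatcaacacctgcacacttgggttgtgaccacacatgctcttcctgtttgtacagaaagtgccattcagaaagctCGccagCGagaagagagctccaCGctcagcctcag
CACNA2D3: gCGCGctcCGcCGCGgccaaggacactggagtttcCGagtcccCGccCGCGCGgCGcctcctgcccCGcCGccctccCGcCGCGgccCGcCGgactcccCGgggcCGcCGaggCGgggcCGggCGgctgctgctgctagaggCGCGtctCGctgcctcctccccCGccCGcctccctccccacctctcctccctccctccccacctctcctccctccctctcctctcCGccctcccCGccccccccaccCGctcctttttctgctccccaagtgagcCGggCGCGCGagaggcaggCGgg
BNC2: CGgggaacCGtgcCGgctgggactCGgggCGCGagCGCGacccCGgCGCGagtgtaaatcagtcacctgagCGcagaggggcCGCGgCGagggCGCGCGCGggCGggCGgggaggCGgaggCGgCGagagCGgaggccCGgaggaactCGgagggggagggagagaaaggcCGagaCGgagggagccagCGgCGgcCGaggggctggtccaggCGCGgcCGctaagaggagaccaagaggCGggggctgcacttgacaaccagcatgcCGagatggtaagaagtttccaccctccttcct
PTPRG: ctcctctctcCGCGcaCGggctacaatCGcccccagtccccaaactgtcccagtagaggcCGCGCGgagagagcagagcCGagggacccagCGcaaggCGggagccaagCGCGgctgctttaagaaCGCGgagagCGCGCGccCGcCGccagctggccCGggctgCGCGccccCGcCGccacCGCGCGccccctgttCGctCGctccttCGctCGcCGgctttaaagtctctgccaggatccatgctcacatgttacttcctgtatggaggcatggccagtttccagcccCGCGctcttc

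BNC2, for the zinc finger protein basonuclin, lies at chr9:16409001-16871000 on the minus strand. Its body was 65.7% covered in Pfeiffer, 0% in WSU-DLCL2 cells and 10.9% in KARPAS-422, and its flanks 52.5%, 1.5% and 48.3%. Pfeiffer and KARPAS-422 thus had like flanks (a difference of 4.19 points) and bodies 54.8 points apart, whereas WSU-DLCL2 had next to no coverage inside or out. The 3' flank was 88.4% covered in both Pfeiffer and KARPAS-422. The first, middle and last part of the body had 41.6%, 78.6% and 77.1% in Pfeiffer, and 0%, 5.36% and 27.4% in KARPAS-422. With the stricter false discovery rate of 1e-10 the bodies had 43.7%, 0% and 6.39%, and the Pfeiffer body minus its flanks turned to -0.46 points, against 13.2 points in the full list. The start window was 82.5% covered in Pfeiffer and had no island in the other 2 lines. The longest islands lay at 16386001 to 16458000 in Pfeiffer (72 kb, fold 1.40) and at 16386751 to 16416000 in KARPAS-422 (29.25 kb, fold 1.48), both across the 3' end. The gene lay inside a stretch of 1443 kb without an island in WSU-DLCL2.

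ZNF521, a zinc finger protein of haematopoietic progenitors whose mouse counterpart Evi3 was found as a retroviral insertion site in B cell lymphoma, lies at chr18:22641001-22933000 on the minus strand. Its body was 54.7% covered in Pfeiffer, 0% in WSU-DLCL2 cells and 7.45% in KARPAS-422, with flanks at 66.7%, 0% and 30.9%. Body and flanks put the lines in the same order, with Pfeiffer highest and WSU-DLCL2 at 0 in both. At 1e-10 the Pfeiffer body had 31.8% and the KARPAS-422 body 1.80%. The longest islands lay at 22583251 to 22660500 in Pfeiffer (77.25 kb, fold 1.54) and at 22623001 to 22646250 in KARPAS-422 (23.25 kb, fold 1.46). WSU-DLCL2 had no island from 22321501 to 23139000.

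Among the genes for membrane proteins, CACNA2D3 was nearly empty in Pfeiffer and mostly covered in KARPAS-422. It encodes an auxiliary subunit of voltage-gated calcium channels and lies at chr3:54156001-55109000 on the plus strand, with LRTM1 inside it. The body was 1.97% covered in Pfeiffer (95% Wilson interval 1.34 to 2.89), 22.7% in WSU-DLCL2 cells (20.5 to 25.1) and 69.96% in KARPAS-422 (67.4 to 72.5). The flanks had 53.4%, 20.1% and 58.6%. Pfeiffer and KARPAS-422 differed by 68.0 points in the body and by 5.13 points in the flanks. In Pfeiffer no island was called from 54130501 to 54969750, a stretch of 839.25 kb that began 25.5 kb outside the 5' end and stopped 139.25 kb inside the 3' end. The single island of the Pfeiffer body followed at 54969751 to 54988500 (18.75 kb, fold 1.55). KARPAS-422 had 24 islands in the body, with 77.3%, 71.7% and 60.9% covered in the first, middle and last part. Their pooled fold was 1.59 (1.53 to 1.64), and the longest ran from 54157501 to 54255000 (97.5 kb, fold 1.59). In WSU-DLCL2 the longest lay over the 5' end, at 54153751 to 54198000 (44.25 kb, fold 1.31). The start window had no island in Pfeiffer and was 72.5% covered in WSU-DLCL2 cells and 70% in KARPAS-422. At 1e-10 the WSU-DLCL2 body had 9.21% and the KARPAS-422 body 62.3%.

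TMEM132D encodes a membrane protein expressed mainly in the nervous system and lies at chr12:129556001-130389000 on the minus strand. Its body was 0% covered in Pfeiffer, 10.1% in WSU-DLCL2 cells and 22.5% in KARPAS-422, and its flanks 0%, 54.1% and 56.6%. No pair of lines reached 25 points in the body, and the flanks of Pfeiffer lay 54.1 and 56.6 points below those of the other 2 lines. Where there was coverage outside, then, the body held less: 44.0 points under the flanks in WSU-DLCL2 cells and 34.1 points under in KARPAS-422. In WSU-DLCL2 that difference was -23.9 points with flanks of 100 kb and -21.4 points at a false discovery rate of 1e-10, both short of 25. In WSU-DLCL2 the body was empty from 129678001 to 130228500, and its last part, at the 3' end, was 28.5% covered while the first was 1.62% covered. None of the WSU-DLCL2 coverage of the body remained at 1e-10, where KARPAS-422 had 12.6%. The longest islands lay at 129628501 to 129656250 in WSU-DLCL2 cells (27.75 kb, fold 1.20) and at 130032001 to 130050000 in KARPAS-422 (18 kb, fold 1.47). In Pfeiffer the gene lay in a stretch of 4608.75 kb without an island, far beyond the gene on its 3' side.

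PTPRG encodes a receptor-type tyrosine phosphatase and lies at chr3:61547001-62284000 on the plus strand. Its body was 72.7% covered in Pfeiffer (95% Wilson interval 69.8 to 75.4), 17.9% in WSU-DLCL2 cells (15.7 to 20.4) and 16.5% in KARPAS-422 (14.3 to 18.9). The flanks had 33.2%, 20.1% and 17.2%, so the body of Pfeiffer exceeded its flanks by 39.5 points. In the other 2 lines the pooled flanks joined a 5' side at 0% with a 3' side at 40.1% and 34.5%. There the sign of the body minus the flanks depended on their length, at 12.7 and 7.86 points with 100 kb, -2.15 and -0.76 points with 200 kb and -13.6 and -8.89 points with 400 kb. Pfeiffer had 77.3%, 68.2% and 72.4% covered in the first, middle and last part. WSU-DLCL2 (4.27%, 0% and 49.5%) and KARPAS-422 (4.27%, 13.1% and 32.1%) had most of their coverage in the last part. There the longest islands of these 2 lines overlapped, at 62161501 to 62208750 in WSU-DLCL2 cells (47.25 kb, fold 1.61) and 62184751 to 62209500 in KARPAS-422 (24.75 kb, fold 1.39). That of Pfeiffer lay near the 5' end, at 61555501 to 61683000 (127.5 kb, fold 1.57). The start window was 70% covered in Pfeiffer and had no island in the other 2 lines. At 1e-10 the bodies had 58.1%, 13.6% and 8.34%.

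Among the genes for cytoplasmic proteins, CPNE4 and DAB1 were covered most in KARPAS-422. CPNE4 encodes a copine, a calcium-dependent phospholipid-binding protein, and was taken as chr3:131252001-132006000 on the minus strand. Its body was 10.9% covered in Pfeiffer, 10.05% in WSU-DLCL2 cells and 58.02% in KARPAS-422, with flanks at 11.9%, 7.88% and 32.8%. KARPAS-422 exceeded both other lines by 47.1 and 48.0 points in the body and by 20.8 and 24.9 points in the flanks. The body was 25.3 points over the flanks in KARPAS-422, and 13.6 points over at a false discovery rate of 1e-10. Its 24 islands there were short, with a median of 12.75 kb and a pooled fold of 1.38 (1.32 to 1.43). The longest lay at 131483251 to 131525250 (42 kb, fold 1.29), against 131235751 to 131262000 in Pfeiffer (26.25 kb, fold 1.26) and 131778001 to 131804250 in WSU-DLCL2 (26.25 kb, fold 1.28). At a false discovery rate of 1e-10 the body kept 0% in Pfeiffer, 0% in WSU-DLCL2 cells and 25.96% in KARPAS-422.

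DAB1 encodes an intracellular adaptor of reelin signalling in neurons and was taken as chr1:57463001-58717000 on the minus strand. The body was 29.2% covered in Pfeiffer, 11.02% in WSU-DLCL2 cells and 65.6% in KARPAS-422, and the flanks 43%, 51.1% and 70.2%. In WSU-DLCL2 the body lay 40.1 points under the flanks (-22.6 points at 1e-10, short of 25), and its coverage was limited to the first part (33.1%, with 0% in the middle and last parts). The WSU-DLCL2 stretch without an island ran from 57430501 to 58447500, 1017 kb, from 269.5 kb inside the 5' end to 32.5 kb outside the 3' end. KARPAS-422 had 80.02%, 51.9% and 64.8% covered in the first, middle and last part. At 1e-10 the bodies had 10.96%, 6.18% and 47.7%. The longest islands lay at 58652251 to 58690500 in Pfeiffer (38.25 kb, fold 1.16), 58661251 to 58719750 in WSU-DLCL2 cells (58.5 kb, fold 1.34) and 58400251 to 58515750 in KARPAS-422 (115.5 kb, fold 1.48). The start window was 100%, 77.5% and 47.5% covered. The bounds of CPNE4 and DAB1 came to 149% and 80.8% of the gene's length in RefSeq on GRCh38.p14. Their body and flank shares, start windows and parts therefore depend on the bounds used. Sequence taken as body may lie outside the RefSeq gene, and sequence taken as flank may lie inside it. Counts of bodies over or under their flanks that include either gene share this limit. The lengths of the other 8 genes differed from RefSeq by under 2%.

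FHIT, a diadenosine triphosphate hydrolase whose gene spans the fragile site FRA3B, had the largest covered share of the body in WSU-DLCL2 after AFF3. By length it had more covered there, 515.5 kb against 463.75 kb in AFF3. FHIT lies at chr3:59735001-61238000 on the minus strand. The body was 23.2% covered in Pfeiffer, 34.3% in WSU-DLCL2 cells and 2.20% in KARPAS-422, with flanks at 65.9%, 47.2% and 15.9%. The first part of the gene, next to the 5' end, had 0.349%, 10.7% and 0% covered, the lowest of the 3 parts in Pfeiffer and WSU-DLCL2, and in KARPAS-422 the middle part was also at 0%. At 1e-10 the bodies had 13.2%, 19.3% and 1.10%. Pfeiffer and WSU-DLCL2 shared 227.25 kb of the 637 kb covered in either of them, a Jaccard index of 0.357, although Pfeiffer had most of its coverage in the middle part (40.97%) and WSU-DLCL2 in the last (54.4%). The longest island of WSU-DLCL2, at 59616001 to 59795250 (179.25 kb, fold 1.45), crossed the 3' end. Those of Pfeiffer and KARPAS-422 lay at 60556501 to 60609750 (53.25 kb, fold 1.26) and 59749501 to 59766000 (16.5 kb, fold 1.51). In KARPAS-422 no island was called from 59866501 to 61665750, which takes in most of FHIT and the start of PTPRG. The 2 genes are 309 kb apart, and 91 kb belong to a flank of both.

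SMOC2, a secreted calcium-binding protein of the extracellular matrix, lies at chr6:168841001-169069000 on the plus strand, with DACT2 before its 5' end. Its body was 87.3% covered in Pfeiffer (95% Wilson interval 82.9 to 90.5), 13.2% in WSU-DLCL2 cells (9.81 to 17.4) and 75% in KARPAS-422 (69.8 to 79.5). Its flanks had 81.9%, 13% and 75.2%. Body and flanks differed by at most 5.34 points in any line with flanks of 200 kb, but by more under other settings. Pfeiffer was at 14.3 points with flanks of 100 kb and 10.5 points with 400 kb, where WSU-DLCL2 was at -12.9 points. At 1e-10 Pfeiffer was at 10.2 and KARPAS-422 at 10.8 points, and at a fold of at least 2 they were at -19.8 and -29.0 points. WSU-DLCL2 was low both inside and outside the gene. None of its coverage of the body remained at 1e-10, while the other 2 lines kept 87.3% and 75%. The pooled fold was 1.75 in Pfeiffer (1.66 to 1.84), 1.52 in WSU-DLCL2 cells (1.32 to 1.75) and 1.98 in KARPAS-422 (1.85 to 2.13). The Pfeiffer and KARPAS-422 folds were the highest among the 10 genes in those lines, while in WSU-DLCL2 AFF3 was slightly higher. The longest islands lay at 168886501 to 168960000 (73.5 kb), 168975751 to 168988500 (12.75 kb) and 169017001 to 169053000 (36 kb) in the 3 lines. Pfeiffer and KARPAS-422 shared 156.75 kb of the 213.25 kb covered in either, a Jaccard index of 0.735.

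**Figure D3:**
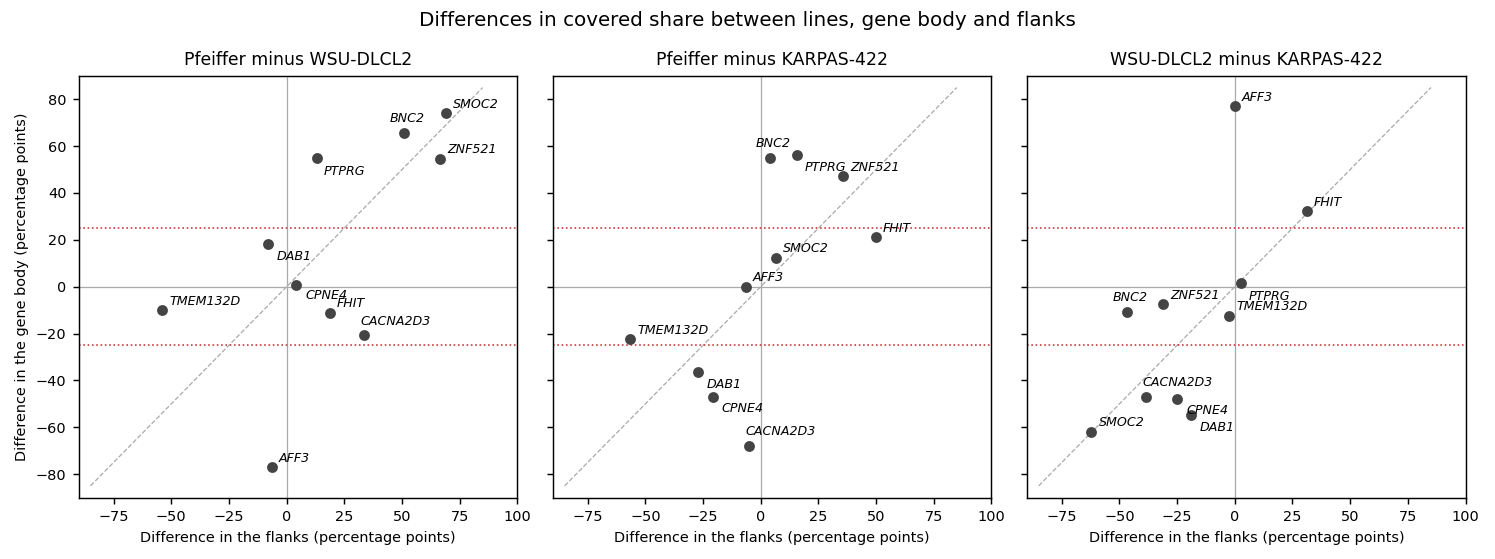
Difference in covered share between 2 lines in the gene body (vertical axis) against the difference in the pooled 200 kb flanks (horizontal axis), in percentage points, 1 point per gene; the dashed line marks equal differences and the dotted lines 25 points in the body. AFF3 lies far from the dashed line in both panels with WSU-DLCL2, at body differences of 77.1 points, while SMOC2 lies close to it in every panel.

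In 5 genes, BNC2, ZNF521, CACNA2D3, PTPRG and CPNE4, a start window covered at 62.5% or more in 1 line stood beside one with no island in another. That limit is the Pfeiffer value of ZNF521 itself, and SMOC2 had 55% in KARPAS-422 and no island in WSU-DLCL2. The CPNE4 window depends on which start is used. No share over other start windows was computed and the genes were picked for differences between lines, so the count describes the choice.

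Pooled over the islands of a body, the fold over input lay between 1.27 and 1.98 in the 27 cases with an island. Islands were called for exceeding input, so folds over 1 follow from the calling, and amplified reads are not independent molecules, so the intervals cover counting error only. Folds of different lines rest on separate libraries and scalings. In 5 of the 10 genes the highest fold was in the most covered line: CACNA2D3, ZNF521, PTPRG, TMEM132D and DAB1. In CACNA2D3, ZNF521, PTPRG and DAB1 the interval of that line overlapped one of another line. For DAB1 these were KARPAS-422, at 1.45 (1.41 to 1.49), and Pfeiffer, at 1.45 (1.39 to 1.51). In TMEM132D KARPAS-422, at 1.54 (1.44 to 1.64), lay apart from WSU-DLCL2, at 1.27 (1.18 to 1.38). No such count was made for other regions, so nothing is read from it. Folds are of whole islands, so those of AFF3 in Pfeiffer and KARPAS-422 are mostly of sequence outside the gene.

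**Figure D4:**
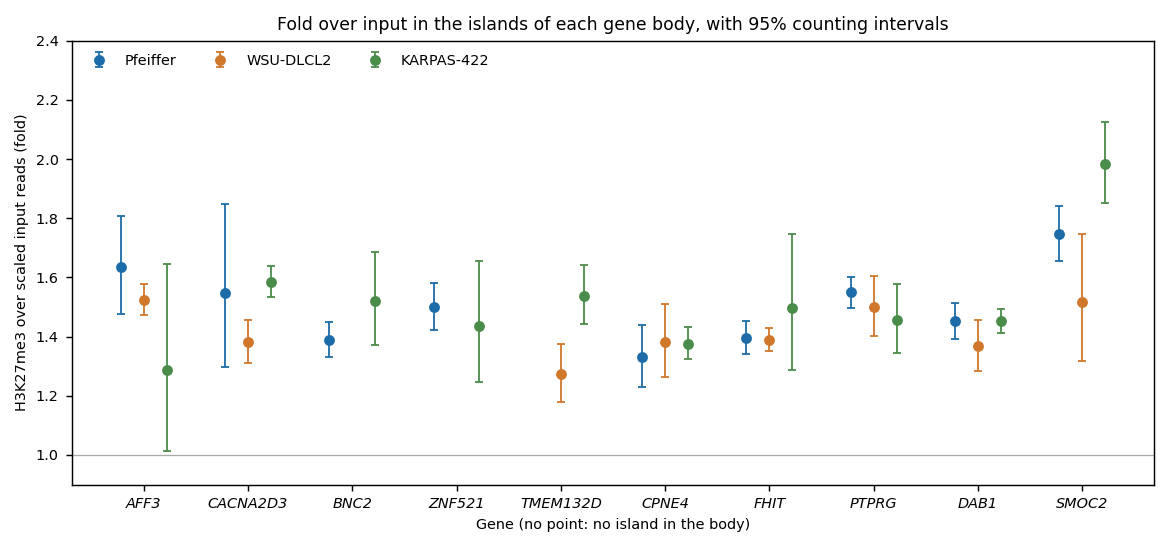
H3K27me3 over scaled input reads, pooled over the islands that meet each gene body, with 95% counting intervals; colours mark Pfeiffer, WSU-DLCL2 and KARPAS-422 from left to right, the axis does not start at 0, and a gene without an island has no point. Folds lie between 1.27 and 1.98, with SMOC2 highest in Pfeiffer and KARPAS-422.

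Input reads per kb of islands were taken relative to each line's autosomal median. In the islands of these bodies they ran from 0.883 to 1.08 in Pfeiffer, 0.909 to 1.08 in WSU-DLCL2 cells and 0.835 to 1.30 in KARPAS-422. The lowest value came from 1071 input reads in the SMOC2 islands of KARPAS-422, which also had the highest pooled fold, 1.98. The highest value came from 102 input reads in the only KARPAS-422 island at AFF3. Over all islands within 2 Mb of a gene the ranges were 0.944 to 1.06, 0.920 to 1.06 and 0.875 to 1.08. At AFF3 they were 1.005, 1.01 and 1.01, at CACNA2D3 1.06, 1.06 and 1.08, and at SMOC2 1.02, 0.920 and 0.907. Input is listed only inside islands, so in stretches without one a local loss of DNA and an absence of the mark cannot be told apart. This holds for every such stretch. Among them are those of AFF3 in Pfeiffer and KARPAS-422, CACNA2D3 and TMEM132D in Pfeiffer, BNC2, ZNF521, DAB1 and PTPRG in WSU-DLCL2, and FHIT in KARPAS-422. Stretches of at least 500 kb without an island numbered 619, 614 and 551 on the autosomes of the 3 lines, and the longest stretch meeting the body reached that length in 4, 6 and 2 of the 10 genes. No share of tiles meeting such a stretch was computed and the genes were chosen by coverage, so nothing is read from these counts.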

How the data were processed

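H3K27me3 and input libraries of 3 lymphoma lines, 1 of each per line, were compared through the deposited island lists. Bowtie, SICER and hg19 are named in the submitters' processing notes. As the names of the deposited files record, SICER ran with 750-base windows, gaps of up to 2250 bases and an FDR limit of 0.001. Tool versions and the handling of duplicate reads were not given in the sources used here. The deposited columns hold whole counts of H3K27me3 and input reads, a p-value, a fold (a ratio of both counts after scaling the libraries) and a q-value per island, all by the authors. The scaling, recovered from the deposited counts and ratio, was 1.16 in Pfeiffer, 1.27 in WSU-DLCL2 cells and 1.65 in KARPAS-422. Listed reads cover islands only, so library depth is unknown and an island missing from a list means too few reads to be called.

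Gene bounds on hg19 came with the selection of the genes, to 1 kb. No hg19 annotation was used here. Strand came from the RefSeq promoter table for 9 genes and from general knowledge for ZNF521. Neighbouring genes and promoter sequences are from RefSeq on GRCh38.p14, whose coordinates were not joined with the islands. The genes and the measures were chosen with earlier results of these data known. All 10 genes are named, each with the longest island meeting its body in each line.

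Covered share was computed for the body, the 200 kb flanks pooled, the 5 kb to either side of the 5' end and 3 equal parts of the body. Autosomal tiles of 500 kb with an island of any line within 1000 kb, each with its own 200 kb flanks, served as background. Folds were pooled as summed counts over the scaling, with exact 95% intervals; shares have Wilson intervals. Coverage arithmetic was checked on simulated islands. No test was run. Alternatives were other island limits, joined islands, equal covered length, other flanks, trimmed bodies, other thresholds and other tiles. Software was Python 3.11.15 with pandas 2.3.3, numpy 2.4.6, scipy 1.17.1 and, for plots, matplotlib 3.10.9.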

Additional observations from a re-analysis of the deposited data

Results flagged for a closer look

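In 3 genes the body lay above its flanks by 10 points or more in 1 line and below them by 10 points or more in another, and none of these differences was tested. Coverage of the bodies and flanks chose the genes, and no share of tiles was computed for this rule. The count therefore describes the choice. For AFF3 the body stood 28.9 points above its flanks in WSU-DLCL2 cells and 48.2 points under them in KARPAS-422, which is 77.1 points apart; Pfeiffer, at 41.8 points under, was like KARPAS-422. For CACNA2D3 the body stood 11.4 points above its flanks in KARPAS-422 and 51.5 points under them in Pfeiffer, 62.9 points apart. For BNC2 the body stood 13.2 points above its flanks in Pfeiffer and 37.4 points under them in KARPAS-422, 50.6 points apart. With 1 library per line each of these rests on a single island list per side. The set of genes depended on the settings. AFF3 met the 10 points in both directions under every alternative run except a fold of at least 2, which left 0 genes. BNC2 did not meet them at a false discovery rate of 1e-10, where Pfeiffer was at -0.46 points, or with flanks of 100 kb, where it was at 8.87 points. CACNA2D3 did not meet them with flanks of 100 kb or 400 kb, where KARPAS-422 was at 7.96 and 8.06 points. With flanks of 400 kb, 5 genes met them: AFF3, BNC2, PTPRG, DAB1 (20.7 points in KARPAS-422 and -28.8 points in WSU-DLCL2) and SMOC2.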

How the results depend on the processing

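Among the alternatives run, a fold of at least 2 changed most: no gene then differed by 25 points in any of the 3 pairs (0, 0 and 0, against 5, 6 and 6), and the counts of bodies over and under their flanks were 0 and 0 in Pfeiffer, 0 and 0 in WSU-DLCL2 cells and 0 and 1 in KARPAS-422. CPNE4 in KARPAS-422, 25.3 points over its flanks, came to -4.13 points at that fold. The counts of genes differing between lines stayed within 1.5 times of the values given under every other alternative. With a false discovery rate of 1e-10, bodies over their flanks numbered 0 in WSU-DLCL2 cells (AFF3 lost) and 0 in KARPAS-422 (CPNE4 lost), and bodies under them 1 in WSU-DLCL2 (TMEM132D and DAB1 lost, FHIT gained). With islands under 5 kb apart joined, or bodies without their outer 25 kb, the count over flanks in KARPAS-422 was 0. With flanks of 100 kb, WSU-DLCL2 had 0 over (AFF3 lost) and 1 under (TMEM132D lost). With a threshold of 40 points, the counts over flanks were 0 in Pfeiffer, 0 in WSU-DLCL2 cells and 0 in KARPAS-422, and the count under in KARPAS-422 was 1. Lists of equal covered length moved 2 of 30 body shares, and leaving out islands with over 3 times the median input, an alternative added after the data were seen, moved 0. Tiles of 250 kb and 1000 kb gave shares past the threshold within 1.5 times of those of 500 kb. No paired analysis was possible because each line has 1 library. Leaving out a replicate was not possible either.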
